A study of Homo sapiens with 4 samples.

Results

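The lysyl oxidases and collagen-modifying enzymes described here are 10 genes (LOX, LOXL1, LOXL2, LOXL3, LOXL4, PLOD1, PLOD2, PLOD3, P4HA2 and SERPINH1), out of the 58233 genes listed in the deposited count table. They were chosen by name, with earlier results of these data known. Each name matched 1 gene of the table. They act one after another on collagen. In the endoplasmic reticulum, prolyl 4-hydroxylases such as P4HA2 hydroxylate proline so that the triple helix is stable, the PLOD enzymes hydroxylate lysine, and the chaperone SERPINH1 (HSP47) binds the folded procollagen. Outside the cell, lysyl oxidases use copper to oxidise lysine and hydroxylysine side chains of collagen and elastin, and the resulting aldehydes form the cross-links that stiffen the matrix. In carcinomas several of these genes are known as hypoxia-induced and as markers of a remodelled matrix.

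RNA was sequenced from MCF10AT, a human mammary epithelial line that carries oncogenic HRAS (HRasG12V in the labels), in 4 libraries. They form 2 groups of 2 replicates that share this line and its medium, and the genotype given is Bromo+/- for one and non-target control for the other. The labels describe lentiviral shRNA and puromycin selection for the series but do not spell out Bromo+/-, and the title speaks of EP300 knockdown. A number that the sources do not explain recurs in the column names of each group, and no label names separate cultures or clones. The 2 replicates of a group may therefore stem from 1 clone, and the p-values then reflect no more than how far these libraries differ, which may be technical.

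The libraries held 10835237 to 11975396 counts. EP300, which encodes the acetyltransferase p300, stood at 124 ± 3.73 scaled CPM (counts relative to the scaled library total, mean ± SD, n = 2) under the Bromo+/- label. It stood at 109 ± 3.16 in the controls, so it was not lower under that label. It passed as higher in the edgeR test described below (log2 fold change 0.19, adjusted p = 0.00701). By the DESeq2 Wald test it did not pass (adjusted p = 0.0639, and 0.123 when run on all genes). All 8 listed epithelial markers were lower under the Bromo+/- label in the edgeR test described below, as were 27.1% of all tested genes. Their summed level was 1206 to 1282 scaled CPM against 9234 to 9563 in the controls. Among these markers, KRT14 had 0 counts against 162 and TP63 had 8 against 495. Both had enough counts only through the controls, so their direction was fixed in advance. The junction gene CDH1 had 60 counts against 9058, while KRT5 was still at 595 ± 22.9 against 4056 ± 133 scaled CPM. Of 8 fibroblast markers LUM had 0 counts in every library, COL1A2 had 1 count in all, and PDGFRA, PDGFRB and THY1 had 9, 10 and 3 counts over the libraries with the Bromo+/- label. DCN had 1865 counts under the Bromo+/- label against 16 in the controls and COL1A1 had 176 against 63, while FAP had 396 against 844. The summed level of the list was 103 to 106 against 41.4 to 43.5 scaled CPM, mostly through DCN in the first group and FAP in the second. Of 7 leukocyte and 5 endothelial markers CD3E and VWF were among those at 0 and PTPRC and CDH5 had 1 count each. The most counted leukocyte markers were CSF1R, with 27 counts under the Bromo+/- label against 168, and CD14, with 84 against 131. The most counted endothelial markers were PECAM1, with 47 against 67, and KDR, with 37 against 13. The leukocyte sum was 4.52 to 5.05 against 13.1 to 14.4, and the endothelial sum 3.75 to 4.34 against 3.03 to 4.58 scaled CPM. In bulk RNA, fewer cells of a type and less RNA per cell cannot be told apart, and the part of the epithelial difference in the results below was not tested.

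Groups were compared over all 13179 genes with enough counts, with edgeR's quasi-likelihood test and Benjamini-Hochberg adjustment, and a gene is said to rise or fall where its adjusted p was under 0.05. Of the 10 genes, 9 had enough counts and LOXL4 did not. Of these 9, 6 rose (LOXL2, LOX, PLOD2, LOXL1, SERPINH1 and PLOD1) and 3 fell (LOXL3, P4HA2 and PLOD3). Over all tested genes 53.5% passed, 26.4% higher and 27.1% lower. The libraries of the groups did not overlap for any of the 9, as for 75.2% of all tested genes. The median log2 fold change, libraries with the Bromo+/- label over control, was 0.54 for the 9 genes and 0.0062 over all tested genes. The p-values below come from that test.

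**Figure D1:**
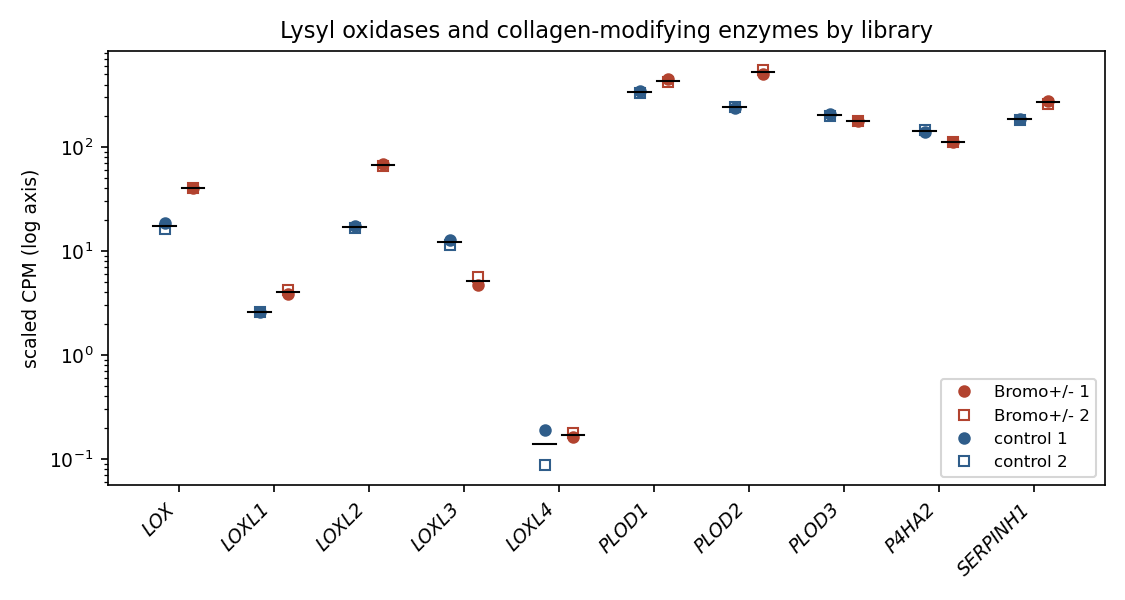
Scaled CPM (log axis) of each of the 10 genes in each library, with blue for the controls, red for the libraries with the Bromo+/- label, filled circles for replicate 1, open squares for replicate 2 and a bar for the mean. LOXL2 and LOX have means of 16.9 and 17.4 scaled CPM in the controls and 67.4 and 40.3 under the Bromo+/- label, LOXL3 moves the other way, and LOXL4 rests on 1 or 2 counts per library.

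Among the lysyl oxidases, LOXL2 and LOX rose most in level, LOXL1 rose from a low level and LOXL3 fell. LOX, the founding enzyme of the family, lies on chromosome 5 (GRCh38, 122063195 to 122078360, minus strand). Its level was 40.6 and 40.0 scaled CPM under the Bromo+/- label and 18.4 and 16.3 in the controls. The lower of the first pair was still more than the higher of the second. LOX rose 2.32-fold (log2 fold change 1.22, SE 0.10, adjusted p = 2.04e-26), from 382 counts over the control libraries to 950. Of all tested genes 94.1% had a lower log2 fold change than LOX and 97.3% a lower one than LOXL2. LOX shares 138 exon bases (2.49%) with SRFBP1 on the opposite strand, which fell by 0.35 on the log2 scale (adjusted p = 0.000269). LOX is a textbook target of hypoxia-inducible factors, whose core motif is ACGTG or GCGTG, so its promoter is shown with that core in capitals (RefSeq, GRCh38.p14, chr5:122078260-122078509, minus strand, 5′ to 3′, the 250 bases before the start):
LOX: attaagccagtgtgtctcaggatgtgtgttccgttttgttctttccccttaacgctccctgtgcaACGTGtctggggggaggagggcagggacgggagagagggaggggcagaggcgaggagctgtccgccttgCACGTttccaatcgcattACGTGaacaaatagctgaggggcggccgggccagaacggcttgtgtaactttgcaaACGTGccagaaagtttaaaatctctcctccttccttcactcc
The window of 300 bases around this start, 250 before and 50 after, held 4 cores counted on both strands, at positions -185, -116, -98 and -42 from the start. Windows at other LOX starts, 1137 and 1186 bases from the first base of the deposited gene, overlap each other and held the same 2 cores. RefSeq gives 35116 such windows, and 48.4% of them held at least 1 core and 4.40% held 4 or more. A match of letters is a description and not a measured site.

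LOXL2, an enzyme with scavenger-receptor domains that is active on collagen IV, lies on chromosome 8 (GRCh38, 23297189 to 23425328, minus strand). It stood at 68.4 and 66.3 scaled CPM under the Bromo+/- label and at 17.3 and 16.6 in the controls. Replicates lay close together and the groups far apart. The means of 67.4 ± 1.44 and 16.9 ± 0.48 gave a 3.98-fold rise (log2 fold change 1.99, SE 0.10, adjusted p = 1.99e-59). LOXL2 shares 120 exon bases with ENTPD4 on the same strand, which is 2.10% of its exon bases. The antisense gene LOXL2-AS1, with 178 shared bases, had 3 counts over each group. ENTPD4 rose by 0.30 on the log2 scale (adjusted p = 0.000134), from 58.7 ± 1.46 to 72.6 ± 4.39 scaled CPM.

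LOXL1, the family member tied to elastic fibre renewal, lies on chromosome 15 (GRCh38, 73925989 to 73952137, plus strand). It was at 3.83 and 4.25 scaled CPM under the Bromo+/- label and at 2.58 and 2.59 in the controls. These levels are low, 95 counts over the first group against 57 over the second. LOXL1 rose by 0.64 on the log2 scale (SE 0.25, adjusted p = 0.023). By the Wald test of DESeq2 it did not pass (adjusted p = 0.223). The call also ended without Bromo+/- replicate 2 (0.126), without control replicate 1 (0.0884) and without control replicate 2 (0.0975), all as edgeR adjusted p-values. LOXL1 shares 335 exon bases (9.21%) with the antisense gene LOXL1-AS1, which did not pass (log2 fold change -0.27, adjusted p = 0.323).

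LOXL3, a relative of LOXL2 with the same scavenger-receptor domains, lies on chromosome 2 (GRCh38, 74532414 to 74555690, minus strand). It stood at 4.73 and 5.58 scaled CPM under the Bromo+/- label and at 12.7 and 11.5 in the controls. It was the one tested lysyl oxidase with both libraries with the Bromo+/- label below both controls. LOXL3 fell by 1.23 on the log2 scale (SE 0.17, adjusted p = 1.47e-11), from 266 counts over the controls to 121. LOXL3 shares 625 exon bases (14.3%) with HTRA2 and 216 (4.95%) with DOK1, both on the opposite strand. HTRA2, a mitochondrial protease gene, had 207 and 175 counts against 282 and 270 and fell by 0.63 on the log2 scale (adjusted p = 1.65e-07). DOK1 did not pass (log2 fold change 0.27, adjusted p = 0.243). Whether reads were assigned by strand is not given, and the part of these overlaps in the LOXL3 value was not tested.

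LOXL4, on chromosome 10 (GRCh38, 98247690 to 98268250, minus strand), had 2 and 2 counts under the Bromo+/- label and 2 and 1 in the controls. All 4 values lie under 3 counts, which correspond to 0.245 to 0.287 scaled CPM, so no difference was detectable at this depth. The opposite-strand gene that shares 152 of its exon bases, ENSG00000230928, had 0 counts in every library.

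The lysyl hydroxylases were far more abundant and moved apart from each other: PLOD2 rose 2.18-fold, PLOD1 rose 1.28-fold and PLOD3 fell slightly. PLOD2, which hydroxylates the telopeptide lysines of collagen and so sets the type of cross-link that lysyl oxidases make, lies on chromosome 3 (GRCh38, 146069440 to 146163653, minus strand). It stood at 504 and 545 scaled CPM under the Bromo+/- label and at 238 and 244 in the controls. The spread within each group was small against the gap between the groups. The means were 525 ± 29.0 and 241 ± 4.29 (log2 fold change 1.12, SE 0.05, adjusted p = 4.09e-57). No exon of PLOD2 overlaps another listed gene.

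PLOD1, which hydroxylates lysines of the collagen helix, lies on chromosome 1 (GRCh38, 11934205 to 11975538, plus strand). Its level was 448 and 422 scaled CPM under the Bromo+/- label and 344 and 334 in the controls. The rise was small against its level, 0.36 on the log2 scale (SE 0.05, adjusted p = 1.38e-10). PLOD1 exons overlap no other gene of the table.

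PLOD3, which also glycosylates hydroxylysine, lies on chromosome 7 (GRCh38, 101205977 to 101218420, minus strand). It was at 180 and 177 scaled CPM under the Bromo+/- label and at 206 and 201 in the controls. The groups did not overlap, but they lay close. PLOD3 fell by 0.19 on the log2 scale (SE 0.06, adjusted p = 0.00189). That call ended with library size alone (log2 fold change -0.11, adjusted p = 0.0943). It also ended when control replicate 1 was left out (adjusted p = 0.0692). PLOD3 shares 429 exon bases (7.56%) with ZNHIT1 on the opposite strand, which fell by 0.29 on the log2 scale (adjusted p = 0.000858). The call for ZNHIT1 ended without Bromo+/- replicate 2 and without control replicate 1 (highest adjusted p = 0.126).

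PLOD1 and PLOD2 both rose and are known to respond to hypoxia, and their promoters are shown for comparison with that of LOX, with the same core in capitals (RefSeq, GRCh38.p14, 5′ to 3′, the 250 bases before the start, chr3:146161185-146161434 on the minus strand and chr1:11934467-11934716 on the plus strand):
PLOD2: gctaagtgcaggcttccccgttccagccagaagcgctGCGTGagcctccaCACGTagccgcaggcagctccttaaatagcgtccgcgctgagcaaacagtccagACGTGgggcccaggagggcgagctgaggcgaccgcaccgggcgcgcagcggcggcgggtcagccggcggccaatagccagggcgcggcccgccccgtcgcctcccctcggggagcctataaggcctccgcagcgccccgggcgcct
PLOD1: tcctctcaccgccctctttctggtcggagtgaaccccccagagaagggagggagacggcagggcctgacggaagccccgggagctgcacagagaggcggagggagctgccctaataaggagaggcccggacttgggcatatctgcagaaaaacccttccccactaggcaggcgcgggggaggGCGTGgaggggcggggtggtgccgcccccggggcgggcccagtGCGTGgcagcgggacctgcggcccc
PLOD2 held 3 cores, at -213, -200 and -146, and PLOD1 held 2, at -68 and -25. Promoter windows were found for 9 of the 10 genes, LOXL2 being the one without an entry. In the window nearest the start of the deposited gene, 4 of the 9 held a core (LOX, PLOD1, PLOD2 and SERPINH1), against 48.4% of all windows. LOXL1, LOXL3, LOXL4, PLOD3 and P4HA2 held none there, and the P4HA2 window lies 68224 bases from the first base of the deposited gene. In these nearest windows the letters CACCTG, an E-box that ZEB and SNAIL repressors bind, were found in 1 of the 9 (LOXL4; 20.6% of all windows). The 9 genes have 13 windows in all, and those at other starts of LOX, LOXL3 and SERPINH1 held CACCTG as well. CAGACA, a SMAD motif, was found in 2 of the 9 (LOX and P4HA2; 16.9% of all windows). TGANTCA, the AP-1 motif, was found in 0 of the 9 and in 7.71% of all windows. All motifs were searched on both strands.

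P4HA2 and SERPINH1 act on procollagen before secretion, and they moved in opposite directions. P4HA2, a catalytic subunit of prolyl 4-hydroxylase, lies on chromosome 5 (GRCh38, 132191838 to 132295315, minus strand). It was at 113 and 113 scaled CPM under the Bromo+/- label and at 140 and 144 in the controls. The replicates differed by less than the groups did. P4HA2 fell by 0.33 on the log2 scale (SE 0.06, adjusted p = 4.95e-07). The other widely used catalytic subunit, P4HA1, did not pass, with 108 ± 3.82 and 99.1 ± 5.49 scaled CPM (log2 fold change 0.12, SE 0.06, adjusted p = 0.0948). Per length, P4HA2 stood at 0.391 and 0.371 of P4HA1 under the Bromo+/- label and at 0.495 and 0.552 in the controls. The antisense gene P4HA2-AS1, which shares 548 exon bases (6.45%) with P4HA2, had 0 counts in every library.

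SERPINH1, the collagen chaperone HSP47, lies on chromosome 11 (GRCh38, 75562056 to 75572783, plus strand) and overlaps no other gene of the table. Its level was 280 and 261 scaled CPM under the Bromo+/- label and 188 and 183 in the controls. Both values of the first group were above both of the second. SERPINH1 rose 1.46-fold (log2 fold change 0.54, SE 0.05, adjusted p = 5.33e-19). It is known as a heat shock gene, and a heat shock element, a motif searched after the sequence was seen, is in capitals in its promoter (RefSeq, GRCh38.p14, chr11:75562003-75562252, plus strand, 5′ to 3′, the 250 bases before the start):
SERPINH1: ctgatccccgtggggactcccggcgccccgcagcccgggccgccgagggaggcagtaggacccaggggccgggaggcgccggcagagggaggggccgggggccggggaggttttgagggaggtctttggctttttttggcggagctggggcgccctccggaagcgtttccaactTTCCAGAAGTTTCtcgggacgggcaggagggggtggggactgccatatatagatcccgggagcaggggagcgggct
The match starts at position -76, SERPINH1 was the only one of the 9 genes to hold it in that window, and 0.49% of all windows did. In these libraries 5 other heat shock genes were read, picked after the SERPINH1 value was seen. HSPA1A, HSPA1B, HSPH1, DNAJB1 and HSPB1 all fell, with a median log2 fold change of -0.40. Of all tested genes 27.1% fell. The part of heat shock in the SERPINH1 value was not tested. HSPB1 fell from 276 ± 7.25 to 182 ± 17.3 scaled CPM and DNAJB1 from 212 ± 3.08 to 145 ± 4.33. HSPA1A and HSPA1B are near-identical, so their separate counts are uncertain, and their calls ended without control replicate 2 (adjusted p = 0.234 and 0.127).

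Levels were compared between genes only per length, as scaled CPM per kilobase of exon. PLOD1 was highest in both groups, at 81.8 ± 3.47 under the Bromo+/- label and 63.7 ± 1.28 in the controls. In the controls SERPINH1 (37.8 ± 0.64), PLOD3 (35.9 ± 0.64) and PLOD2 (31.6 ± 0.56) followed, with no overlap between neighbours. In the libraries with the Bromo+/- label PLOD2 was in the second place (68.7 ± 3.79), before SERPINH1 (55.0 ± 2.75) and PLOD3 (31.4 ± 0.37). P4HA2 was in the fifth place in both groups, at 13.3 ± 0.02 and 16.7 ± 0.36. The lysyl oxidases took all the lower places. In the controls LOX (3.13 ± 0.27), LOXL2 (2.97 ± 0.08) and LOXL3 (2.77 ± 0.19) overlapped with their neighbours in the order. In the libraries with the Bromo+/- label LOXL2 (11.8 ± 0.25) and LOX (7.27 ± 0.07) stood apart from each other, while LOXL3 (1.18 ± 0.14) and LOXL1 (1.11 ± 0.08) overlapped. LOXL4 was last in both, under 0.053 scaled CPM per kilobase in every library.

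The make-up of each family differed between the groups. Summed per length, the 5 lysyl oxidases came to 21.5 and 21.3 scaled CPM per kilobase under the Bromo+/- label and to 10.0 and 9.23 in the controls, 2.22 times as much. LOXL2 made up 55.8% and 54.5% of this sum under the Bromo+/- label and 30.2% and 31.5% in the controls. LOXL3 made up 5.04% and 5.99% against 29.0% and 28.6%. LOX had close shares, 34.1% and 33.8% against 33.1% and 31.9%. The controls thus held LOX, LOXL2 and LOXL3 in about equal parts, and the other group held mainly LOXL2 and LOX. The 3 lysyl hydroxylases summed to 181.9 and 181.8 scaled CPM per kilobase against 132 and 130, 1.39 times as much. PLOD2 made up 36.3% and 39.2% of them under the Bromo+/- label and 23.6% and 24.5% in the controls, and PLOD3 17.4% and 17.1% against 27.5% and 27.2%. These shares are descriptions with no test, and exon bases merged over all isoforms stand in for the length of the transcripts present.

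**Figure D2:**
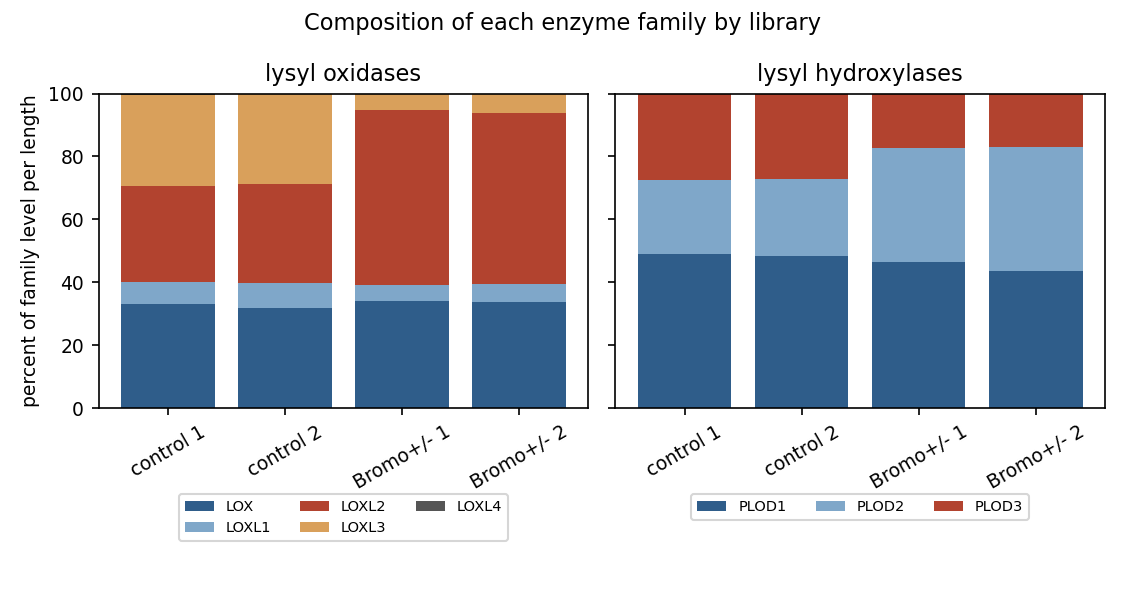
Share of each gene (percent, stacked) in the summed level per length of its family, for the lysyl oxidases on the left and the lysyl hydroxylases on the right, with 1 bar per library. LOXL2 takes 54.5% to 55.8% of the lysyl oxidase sum under the Bromo+/- label against 30.2% to 31.5% in the controls, and PLOD2 36.3% to 39.2% against 23.6% to 24.5% of the lysyl hydroxylase sum.

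The other genes of collagen modification were read from a list of 36, of which 27 had enough counts. Of these 27, 16 rose, 3 fell (P3H2, SEC13 and ATOX1) and 8 did not pass, with a median log2 fold change of 0.18. The share higher was 59.3%, against 26.4% of all tested genes. It counts SPARC, which had enough counts only under the Bromo+/- label and so could not fall. With the DESeq2 Wald test on all genes, an alternative added after seeing the data, 9 rose and 3 fell. That test called fewer genes in all, 4470 of 15516 in either direction, so its 9 is not to be set against the 26.4%. Of 7 tested genes of prolyl hydroxylation 4 rose and 1 fell. P3H1, the main prolyl 3-hydroxylase of fibrillar collagen, rose from 24.3 ± 0.60 to 86.9 ± 0.85 scaled CPM (log2 fold change 1.84, SE 0.09, adjusted p = 2.23e-60). CRTAP, its partner in the same complex, rose from 189 ± 1.96 to 329 ± 5.85 (0.80, SE 0.05). PPIB, the third member of the complex, did not pass (-0.07, adjusted p = 0.284). P3H2, which acts mainly on basement membrane collagen, fell from 84.7 ± 2.10 to 41.6 ± 2.39 (-1.03, SE 0.08, adjusted p = 6.35e-31). P4HB, the shared subunit of the prolyl 4-hydroxylases, rose by 0.28 on the log2 scale.

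**Figure D3:**
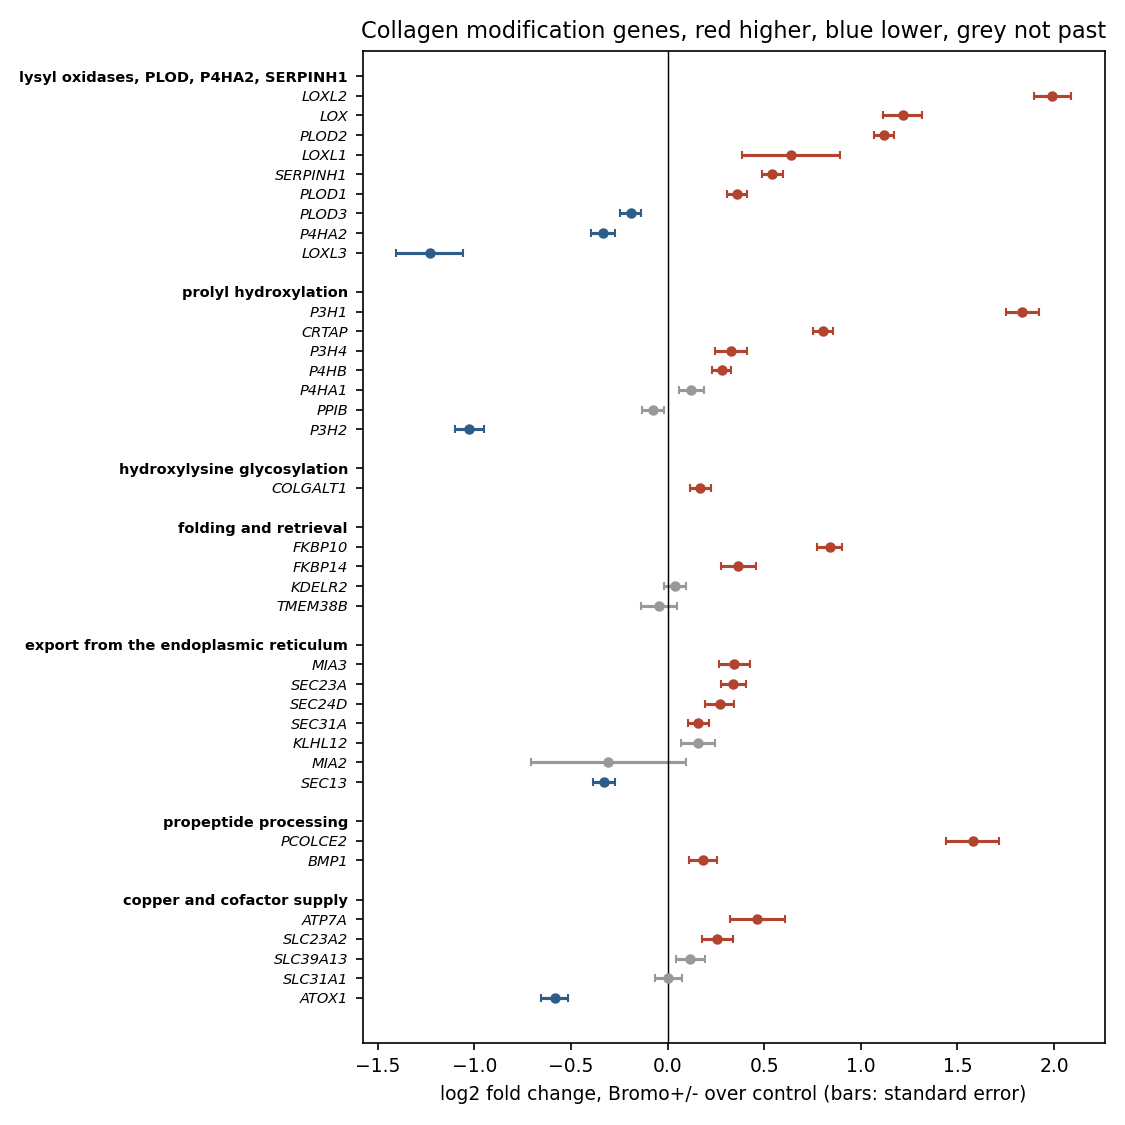
Log2 fold change (horizontal axis, libraries with the Bromo+/- label over control) of each tested gene with its standard error, grouped by step of collagen modification, red for genes that rose, blue for genes that fell and grey for genes that did not pass. SPARC, which had 0 counts in the controls, is left out. LOXL2 (1.99), P3H1 (1.84) and PCOLCE2 (1.58) are farthest to the right and LOXL3 (-1.23) and P3H2 (-1.03) farthest to the left.

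Genes of folding and export had median log2 fold changes of 0.37 and 0.16. FKBP10, a collagen foldase, rose from 73.7 ± 4.60 to 132 ± 2.28 scaled CPM (log2 fold change 0.84, SE 0.07). SPARC, a collagen-binding protein, had 57 and 34 counts under the Bromo+/- label and 0 in both controls, which is at least 28.4-fold higher when 3 counts are set for the whole control group. Over all tested genes 26.4% rose and 27.1% fell. Of 5 tested genes of folding and retrieval 3 rose and 0 fell. SPARC, among the 3, had enough counts only under the Bromo+/- label, so its direction was fixed in advance. Of 7 genes of export 4 rose, among them SEC23A (0.34), MIA3 (0.35) and SEC24D (0.27), and SEC13 fell by 0.33 on the log2 scale. The call for MIA3 ended without control replicate 1 (adjusted p = 0.0593). COLGALT1, a collagen galactosyltransferase, rose by 0.17 (adjusted p = 0.0047), a call that ended without Bromo+/- replicate 1 or control replicate 2 (highest adjusted p = 0.174).

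Of 8 genes of propeptide processing only PCOLCE2 and BMP1 had enough counts. PCOLCE2, an enhancer of the procollagen C-proteinase, stood at 24.7 ± 0.49 scaled CPM against 8.28 ± 0.58 (log2 fold change 1.58, SE 0.14, adjusted p = 2.35e-26). BMP1, that proteinase and an activator of the LOX proenzyme, rose by 0.18 (adjusted p = 0.0266), a call that ended under 5 of the 11 alternatives (highest adjusted p = 0.325). For the copper on which lysyl oxidases depend, the chaperone gene ATOX1 fell from 90.8 ± 3.04 to 60.4 ± 5.87 scaled CPM (-0.58, SE 0.07, adjusted p = 7.38e-14). ATP7A, the pump that loads copper in the secretory pathway, rose by 0.47 (SE 0.14, adjusted p = 0.00309), a call that ended without control replicate 1 and with the DESeq2 Wald test (highest adjusted p = 0.277).

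The collagens and elastin on which these enzymes act were present to very different degrees. Of 13 listed chains 6 had enough counts, and all 6 rose (COL1A1, COL4A1, COL4A2, COL5A2, COL6A1 and COL6A3), against 26.4% of all tested genes. Their median log2 fold change was 1.10. COL4A2 and COL4A1, chains of the basement membrane, were the most abundant per length. COL4A2 stood at 66.1 ± 0.89 scaled CPM per kilobase under the Bromo+/- label and at 45.7 ± 0.59 in the controls, and COL4A1 at 35.9 ± 1.91 and 20.3 ± 0.29. COL6A1 rose from 29 and 37 counts to 458 and 422 (log2 fold change 3.64, SE 0.19), and COL6A3 from 39 and 32 to 455 and 422 (3.53, SE 0.19). Of the fibrillar chains, COL1A1 had 96 and 80 counts against 35 and 28. COL1A2 had 1 count in all libraries together, COL3A1 had 0, and elastin, ELN, had 1. The call for COL5A2 ended without control replicate 1 and by the DESeq2 Wald test (highest adjusted p = 0.0767). Per length, COL1A1 stood at 0.759 ± 0.05 scaled CPM per kilobase under the Bromo+/- label and at 0.294 ± 0.07 in the controls. PLOD1 was at 105.7 and 109.9 times the COL1A1 level in the first pair of libraries and at 189.8 and 254.7 times in the second.

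**Figure D4:**
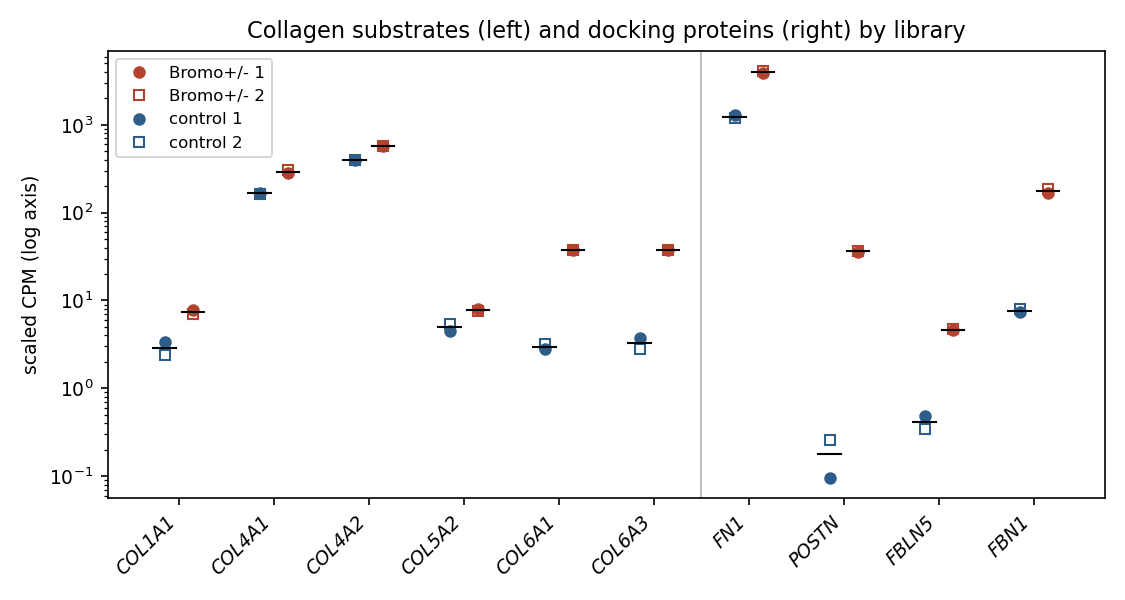
Scaled CPM (log axis) in each library of the tested collagen chains on the left of the grey line and of proteins that bind lysyl oxidases or their substrates on the right, with blue for the controls, red for the libraries with the Bromo+/- label and a bar for the mean. Every gene shown is higher in both libraries with the Bromo+/- label, and POSTN and FBLN5 had enough counts only through those libraries. POSTN goes from 1 and 3 counts to 440 and 413, and the other genes range from 1.45-fold for COL4A2 to 22.9-fold for FBN1.

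Matrix proteins that position lysyl oxidases or their substrates also rose. FN1, whose fibronectin fibres bind the LOX proenzyme, stood at 4011 ± 118 against 1242 ± 71.0 scaled CPM. FBN1, the core of elastic microfibrils, had 2054 and 2091 counts against 77 and 92 (log2 fold change 4.52, SE 0.12), and its groups differed 22.9-fold. POSTN, which encodes periostin and helps BMP1 act on LOX, had 440 and 413 counts against 1 and 3. FBLN5, a fibulin that binds LOXL1, had 57 and 53 counts against 5 and 4 (3.48, SE 0.51). All 4 of the 6 listed that had enough counts rose, against 26.4% of all tested genes. POSTN and FBLN5 had enough counts only through the libraries with the Bromo+/- label. Their direction was thus fixed in advance, and the count cannot be read against that share. FMOD was at 0 throughout.

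LOX, LOXL2, PLOD1, PLOD2 and P4HA2 are known hypoxia-induced genes, and 18 other hypoxia targets were read beside them. Of 17 tested, 4 rose, 4 fell and 9 did not pass, with a median log2 fold change of 0.06. CA12, a carbonic anhydrase, rose by 1.65 and the mitophagy gene BNIP3 by 1.08 on the log2 scale. The glucose transporter SLC2A1 fell by 1.09 and the angiogenic factor VEGFA fell by 0.84. The calls for 3 of these 8 (EGLN3, PDK1 and LDHA) ended under 3 to 5 of the 11 alternatives. The share called was 47.1%, against 53.5% of all tested genes. EGLN3, with 10 and 7 counts in the controls, had enough counts only through the libraries with the Bromo+/- label.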

How the data were processed

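The submitters' processing notes name STAR as aligner, GRCh38 as build and featureCounts 1.5.2 as counter. The authors deposited raw counts per Ensembl gene. Which annotation release was used, and how strand and multi-mapping reads were handled, is not given in the sources used here. Control columns, named WT, were matched to the non-target control as the counterpart of the columns abbreviating Bromo.

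Counts were tested in R 4.3.3 with edgeR 4.0.16 (filterByExpr, scaling by trimmed mean of M values, robust quasi-likelihood test, 2 residual degrees of freedom, adjusted p of 0.05). Standard errors come from the fitted model. DESeq2 1.42.0 (on the filtered genes and, chosen after seeing the data, on all genes), other scalings and filters, a replicate block and leaving out each library were alternatives. Names matched 57392 of 58233 genes. The procedure was tested on simulated data.

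Replicates correlated at r = 0.995 in both groups (log2 CPM, across genes). No block was used in the main fit, since replicate numbers are not said to mark anything shared. Same-numbered libraries did not deviate together (r = 0.05).

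The genes and lists were chosen with earlier results of these data known. Beside the 10 genes, up to 4 per list (2 for lists of 5 or fewer) with the smallest adjusted p are named, with overlapping genes. Other names, including heat shock genes, and the promoters printed were chosen after their values or sequences were seen.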

Additional observations from a re-analysis of the deposited data

How the results depend on the processing

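Of the 9 tested genes, 7 (LOX, LOXL2, LOXL3, PLOD1, PLOD2, P4HA2 and SERPINH1) kept direction and call under all 11 alternatives and the added one below, and none of the 9 changed direction. LOXL1 lost its call under 4 of the 11 and under the added one (adjusted p = 0.338 by the DESeq2 Wald test on all genes). PLOD3 lost its call under 2 of the 11. Without 1 library, 13 to 18 of the other collagen modification genes rose and 3 to 4 fell. Without the filter on low counts 5 of them fell, with ADAMTS14 and TLL1 added at 20 and 13 control counts. The fit with the replicate number as a block gave 6 genes higher and 3 lower among the 9, and 7271 calls over all genes against 7055, and it changed no call among the 9. Over all genes 49.4% of calls were higher, against 61.3% with library size alone. The DESeq2 Wald test, on the genes that passed the filter, called 4884 genes and 5 of the 9 higher. Run on all genes it called 4470 of the 15516 with an adjusted p. In that run 5 of the 9 were higher and 3 lower, and 9 of the other collagen modification genes were higher in place of 16. Both DESeq2 runs had been seen when the first was kept among the 11 alternatives and the second was added to them. With 3 counts at 0.245 to 0.287 scaled CPM per library, LOXL4 is limited by depth. The order of levels per length was that of TPM for all 10 genes.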
